A study of Mus musculus with 8 samples.

Results

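The markers described here are 9 genes used to recognise bile duct cells and liver progenitor cells: Sox9, Krt7, Krt19, Epcam, Spp1, Bicc1, Prom1, Cftr and Cd24a. They were taken by gene name from the deposited count table, which holds 27277 genes, and all 9 were found there. The libraries came from mouse primary hepatocytes, kept in culture for 24 h and given 100 nM glucagon for 12 h. Knockout cells came from mice with floxed Lcmr1 alleles and a Cre recombinase driven by albumin (Lcmr1f/f * albumin-cre), and control cells from mice with the floxed alleles alone (Lcmr1f/f). Lcmr1 is now called Med19 and belongs to Mediator, which bridges transcription factors and RNA polymerase II. The albumin promoter is active in hepatocytes and, during development, in the precursors that also form bile ducts. RNA was sequenced in 3 knockout and 3 control libraries, and chromatin immunoprecipitation (ChIP) in 1 knockout and 1 control library. Every library received glucagon, and the age and sex of the mice were not given in the sources used here.

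Bile ducts are lined by cholangiocytes, epithelial cells that share an embryonic precursor with hepatocytes. Sox9, together with Notch and Hippo signalling, marks and shapes the biliary fate, and keratins, adhesion proteins and apical channels appear as the duct epithelium matures. In injured liver, hepatocytes and cells of the small ducts can take on several of these markers, which is why the same genes are read as signs of a progenitor or ductular state.

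Total gene counts ranged from 25305697 to 26344039 in the knockout libraries and from 22191786 to 26595249 in the control libraries. Med19 had 90, 166 and 97 counts in knockout replicates 1 to 3, against 154, 226 and 248 in control replicates 1 to 3, a log2 change of -1.50 (SE 0.31, edgeR adjusted p = 0.012). These counts cover the whole gene, not the deleted exons alone. Levels below are in CPM, the count scaled to the TMM-adjusted library size, and fold changes are knockout over control. Whether each numbered library stands for its own animal is not said in the labels. The p-values therefore reflect only how these libraries vary, which may be technical. Of the 15135 genes that passed the count filter, 1905 were higher and 1960 lower at an edgeR adjusted p under 0.05. Scaled by library size alone, the median of all genes moved up by 0.588 on the log2 scale and the split became 7711 higher and 617 lower, so changes are relative to the bulk of genes. Control replicate 1 stood apart: 89 tested genes with at least 5 CPM in it were more than 5-fold above both other controls, against 0 to 5 such genes in each of the other 5 libraries.

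Across the 9 markers, Bicc1 and Prom1 were higher in the knockout, and the rest did not pass the test or were too low for it. Of the 8 markers tested, 2 were called higher, beside 12.6% of all tested genes, and 0 were called lower, beside 13.0% of all tested genes. With 8 genes, a share of 25% rests on 2 of them. All knockout libraries lay above all control libraries for 4 markers (Bicc1, Prom1, Spp1 and Cd24a), beside 23.5% of all tested genes, and for 0 markers they lay below, beside 22.5%. The median log2 fold change of the 8 markers was 0.55, against 0.01 for all tested genes, and without control replicate 1 these were 0.94 and 0.04. Leaving out any other single library gave marker medians from 0.41 (without control replicate 2) to 0.63 (without knockout replicate 2). In bulk RNA, a different number of cells of a type and a different amount of RNA per cell cannot be told apart.

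**Figure D1:**
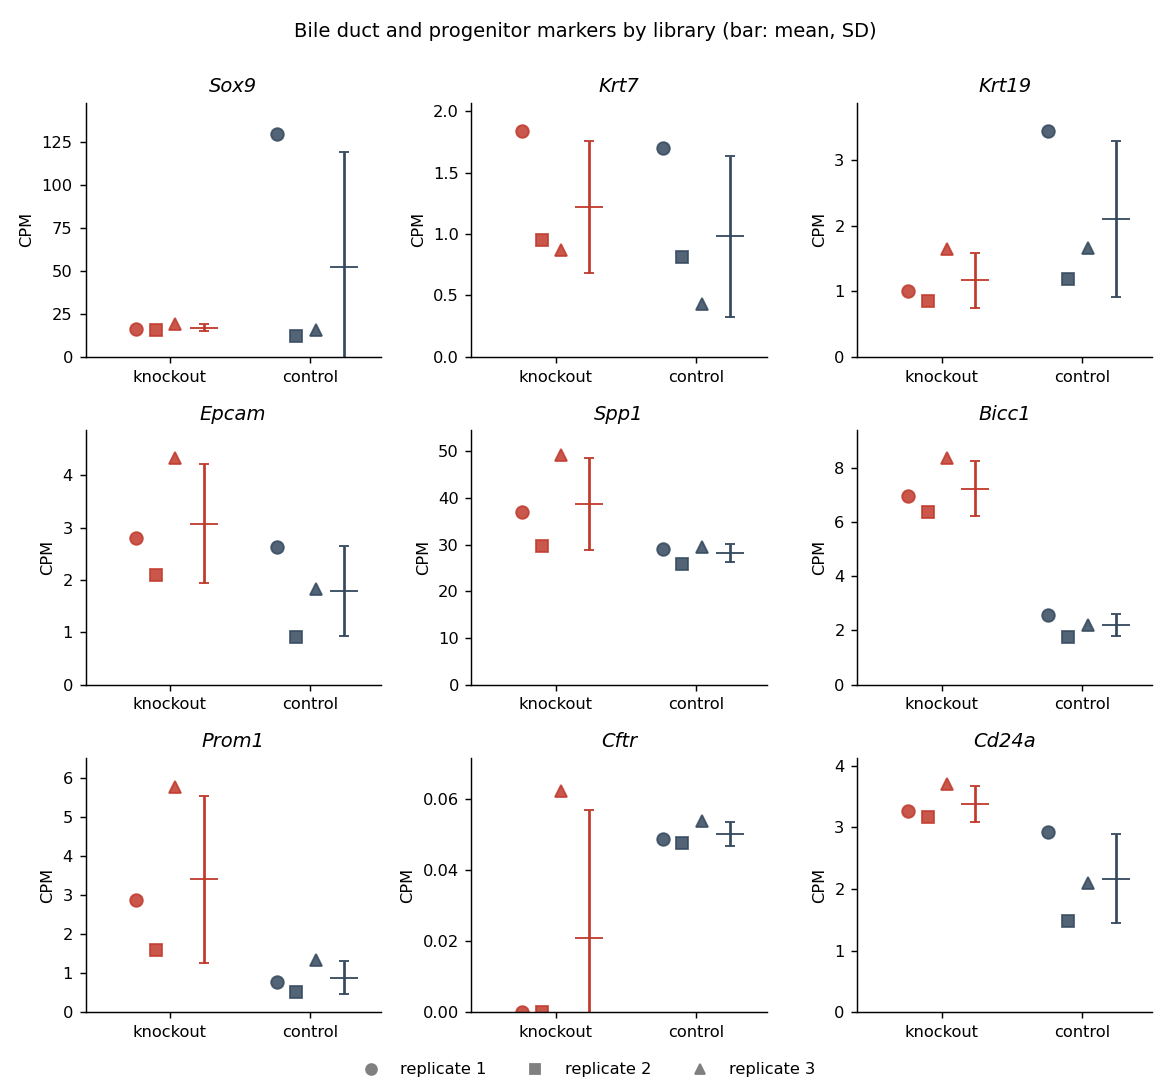
Level of each marker in every RNA library, in CPM on an axis that starts at 0, with knockout libraries on the left and control libraries on the right of each panel. Symbols mark the replicate number, and the bar beside them gives the mean and SD of the 3 libraries, drawn down to 0 where it would pass below. Bicc1, Prom1, Spp1 and Cd24a separate without overlap, with knockout above control, as do 23.5% of all tested genes. Sox9 shows control replicate 1 at 129.6 CPM beside 5 libraries between 12.1 and 19.4 CPM.

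Sox9 (ENSMUSG00000000567, chromosome 11, 112782224 to 112787760, mm10, plus strand) encodes the transcription factor that marks the biliary lineage. It had 495, 500 and 623 counts in the knockout libraries, against 2663, 254 and 293 in the control libraries, or 15.97, 15.86 and 19.4 CPM in knockout against 129.6, 12.1 and 15.8 CPM in control. A single library, control replicate 1, was 8.22-fold above the next control, and the other 2 controls lay below the knockout libraries. The log2 fold change over all 6 libraries was -1.62 (SE 0.96, edgeR adjusted p = 0.267), and without control replicate 1 its sign turned to 0.29 (SE 0.17, edgeR adjusted p = 0.218). For Sox9 the authors' deposited table holds a log2 fold change of -1.64 and no p-value, 1 of 45 genes without one.

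The high Sox9 count belonged to a wider pattern of that library. Sox9 ranked 51 among the 89 genes that stood more than 5-fold above both other controls in control replicate 1. Others on that list, named after their values were seen, were the immediate early genes Nr4a1, Egr1, Atf3 and Fosl2, the acute phase genes Saa2 and Lcn2, and Tnfrsf12a, the receptor of the cytokine TWEAK that acts on ductular cells. Among 9735 genes with at least 5 CPM on average, the one closest to Sox9 in its levels over the 6 libraries was Fosl2, with a root mean square distance of 0.18 on the centred log2 scale. Fosl2, a member of the AP-1 family, had 25.1, 30.3 and 28.0 CPM in the knockout libraries, against 204.6, 23.1 and 21.4 CPM in the control libraries. The Sox9 value that remains without this library is the 0.29 given above.

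Bicc1 (ENSMUSG00000014329, chromosome 10, 70922832 to 71159700, minus strand) encodes an RNA-binding protein whose loss in mice gives cystic kidneys and dilated bile ducts. It had 215, 201 and 268 counts in the knockout libraries, against 53, 37 and 41 in the control libraries, or 6.93, 6.38 and 8.34 CPM in knockout against 2.58, 1.76 and 2.21 CPM in control. The lowest knockout library was above the highest control library, and the fold change from the edgeR fit was 3.30. Bicc1 rose with a log2 fold change of 1.72 (SE 0.23, edgeR adjusted p = 0.00229) and passed the test in each of the 12 other fits, where the log2 fold change ran between 1.58 and 2.32. In the authors' deposited table it has 1.71 and marks it as significant. Its annotated span overlaps 4930533K18Rik on the opposite strand, which had 9 counts over all libraries, and AC087890.1 on the same strand, which had 5.

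Prom1 (ENSMUSG00000029086, chromosome 5, 43993620 to 44102032, minus strand) encodes prominin-1 or CD133, a membrane protein of apical protrusions used to sort progenitor cells. It had 89, 50 and 185 counts in the knockout libraries, against 16, 11 and 25 in the control libraries, or 2.87, 1.59 and 5.76 CPM in knockout against 0.779, 0.524 and 1.35 CPM in control. The groups did not overlap, but knockout replicate 2 lay close to control replicate 3, and knockout replicate 3 stood 2.01-fold above the next knockout library. Prom1 rose with a log2 fold change of 1.95 (SE 0.55, edgeR adjusted p = 0.0368). The call ended in 4 fits that left out a library, with edgeR adjusted p of 0.102 without knockout replicate 3, where the log2 fold change was 1.33, 0.0780 without knockout replicate 1, 0.0749 without control replicate 1 and 0.113 without control replicate 2. In the authors' deposited table it has 1.94 and marks it as significant.

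Promoter windows of RefSeq, from 250 bases before to 50 after an annotated start (GRCm38.p6, the assembly of mm10), were at hand for 5 of the 9 markers: Prom1, Spp1, Epcam, Krt7 and Cftr. Below are those of Prom1, which rose, of Spp1, whose groups did not overlap, and of Epcam, whose groups did. Capitals mark matches to any of 7 short motifs, searched on both strands; no matches overlapped in these windows. Each sequence runs 5′ to 3′ on the strand of the gene. Prom1 and Spp1 each have another window in the table, at an internal start 7264 and 1074 bases from the gene start of the count table, and the window nearest that start is shown.
Prom1: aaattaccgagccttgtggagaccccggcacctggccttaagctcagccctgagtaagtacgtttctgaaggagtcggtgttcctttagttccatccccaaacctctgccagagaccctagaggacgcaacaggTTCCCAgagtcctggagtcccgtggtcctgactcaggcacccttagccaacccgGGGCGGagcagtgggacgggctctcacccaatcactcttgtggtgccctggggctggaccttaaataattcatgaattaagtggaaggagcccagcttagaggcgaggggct
Spp1: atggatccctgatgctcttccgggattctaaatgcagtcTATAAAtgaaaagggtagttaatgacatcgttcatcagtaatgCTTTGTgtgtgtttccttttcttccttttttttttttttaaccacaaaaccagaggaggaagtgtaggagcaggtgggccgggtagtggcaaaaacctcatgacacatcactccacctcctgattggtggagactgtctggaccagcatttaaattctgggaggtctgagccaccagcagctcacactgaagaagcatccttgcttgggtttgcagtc
Epcam: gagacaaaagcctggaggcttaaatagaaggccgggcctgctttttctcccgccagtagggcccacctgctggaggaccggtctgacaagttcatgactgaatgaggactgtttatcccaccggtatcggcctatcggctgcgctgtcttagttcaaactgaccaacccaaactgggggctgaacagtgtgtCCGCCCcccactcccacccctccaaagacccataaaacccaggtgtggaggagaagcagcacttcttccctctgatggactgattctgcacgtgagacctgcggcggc
The window of Prom1 is chr5:44101687-44101986 on the minus strand, that of Spp1 chr5:104434861-104435160 on the plus strand and that of Epcam chr17:87635729-87636028 on the plus strand. For Prom1 the RefSeq start lies 296 bases downstream of the gene start given in the count table, and for Spp1 the starts are 7 bases apart.

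The motifs were AACAAT and ACAAAG for SOX factors, GGAATG for TEAD, TGGGAA for RBPJ, TGTTTAC for FOXA, TATAAA for the TATA box and GGGCGG for the GC box. The Prom1 window held TTCCCA, the RBPJ letters on the other strand, which occur in 25.6% of 32851 promoter windows of the same length, and 1 GC box, found in 35.7%. The Spp1 window held TATAAA (13.6% of windows) and CTTTGT, the second SOX form on the other strand (18.7%). They began at -211 and -168 relative to the RefSeq start. In the Epcam window the only match was CCGCCC, a GC box on the other strand. Neither AACAAT (10.7%), GGAATG (14.7%) nor TGTTTAC (3.65%) was among the letters of these 3 windows. The share of G and C was 57% for Prom1, 45.3% for Spp1 and 57% for Epcam. The other Prom1 window held no match and the other Spp1 window held CTTTGT. No motif was present in all 3 printed windows, and a match is a description of letters, not a binding site.

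Epcam (ENSMUSG00000045394, chromosome 17, 87635979 to 87651106, plus strand) encodes the epithelial adhesion molecule of bile ducts, absent from most adult hepatocytes. It had 87, 66 and 139 counts in the knockout libraries, against 54, 19 and 34 in the control libraries, or 2.81, 2.09 and 4.33 CPM in knockout against 2.63, 0.905 and 1.83 CPM in control. Control replicate 1 lay above knockout replicate 2, so the groups overlapped. This gave a log2 fold change of 0.78 with an SE of 0.43 (edgeR adjusted p = 0.217).

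Cd24a (ENSMUSG00000047139, chromosome 10, 43578284 to 43584265, plus strand) encodes a small lipid-anchored surface glycoprotein found on bile duct cells, progenitors and several blood cells. It had 101, 100 and 119 counts in the knockout libraries, against 60, 31 and 39 in the control libraries, or 3.26, 3.17 and 3.70 CPM in knockout against 2.92, 1.48 and 2.099 CPM in control. All knockout libraries were above all control libraries, with control replicate 1 the nearest to them. Its log2 fold change of 0.64 (SE 0.29) missed the threshold at an edgeR adjusted p of 0.143, and without control replicate 1 it was 0.92 with an edgeR adjusted p of 0.0339. Without any other single library Cd24a stayed uncalled (edgeR adjusted p from 0.227 to 0.350), with a log2 fold change of 0.42 without control replicate 2.

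Spp1 (ENSMUSG00000029304, chromosome 5, 104435118 to 104441050, plus strand) encodes osteopontin, a secreted phosphoprotein of cholangiocytes and also of macrophages. It had 1145, 937 and 1582 counts in the knockout libraries, against 598, 543 and 549 in the control libraries, or 36.9, 29.7 and 49.2 CPM in knockout against 29.1, 25.9 and 29.5 CPM in control. The gap between the groups was small, with knockout replicate 2 next to control replicate 3, and knockout replicate 3 the highest. Its log2 fold change of 0.46 (SE 0.19) came at an unadjusted p of 0.0397 and an edgeR adjusted p of 0.108. The gene closest to it in pattern was Sh2d3c, an adaptor protein gene, with a root mean square distance of 0.05.

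The 2 keratins of duct epithelium did not pass the test. Krt7 (ENSMUSG00000023039, chromosome 15, 101411043 to 101430313, plus strand), a type II keratin, had 57, 30 and 28 counts in the knockout libraries, against 35, 17 and 8 in the control libraries. Krt19 (ENSMUSG00000020911, chromosome 11, 100140810 to 100148665, minus strand), a type I keratin, had 31, 27 and 53 counts in the knockout libraries, against 71, 25 and 31 in the control libraries. For both genes the groups overlapped, and control replicate 1 was the highest control, 2.103-fold and 2.07-fold above the next. Krt7 had a log2 fold change of 0.30 (SE 0.53, edgeR adjusted p = 0.705), which turned to -0.13 without knockout replicate 1 and to -0.05 without control replicate 3. Krt19 had a log2 fold change of -0.85 (SE 0.46, edgeR adjusted p = 0.211), which was -0.29 without control replicate 1.

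Cftr (ENSMUSG00000041301, chromosome 6, 18170687 to 18322768, plus strand), the apical chloride channel of cholangiocytes, was close to undetected. It had 0, 0 and 2 counts in the knockout libraries, against 1, 1 and 1 in the control libraries, and was not tested. A count of 0 allows up to 3 counts, or 0.0968 and 0.0952 CPM in knockout replicates 1 and 2, for counting error only. No difference between the groups was detectable at this depth.

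**Figure D2:**
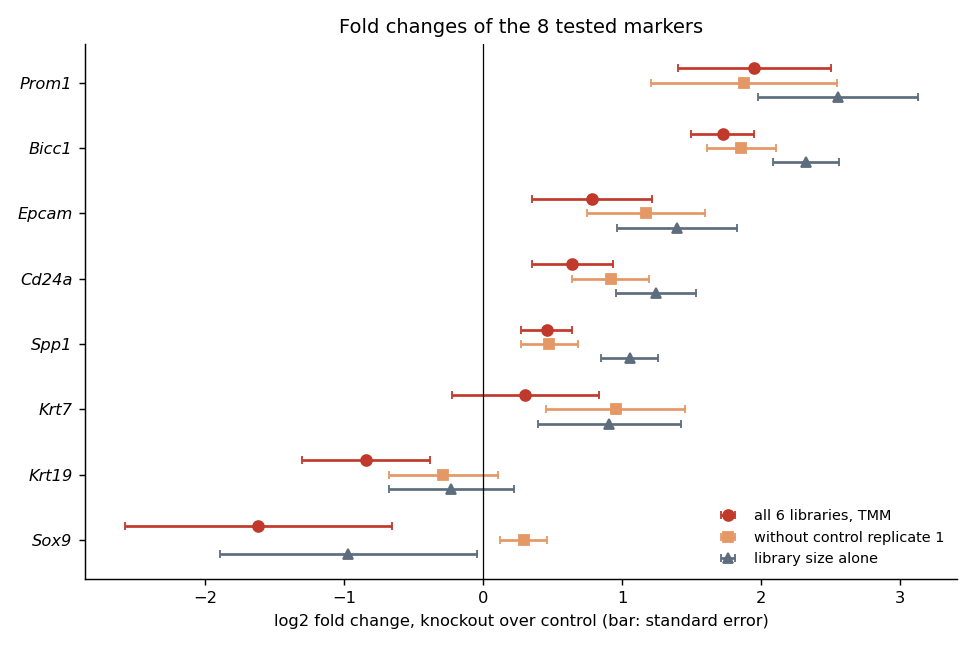
Log2 fold change, knockout over control, with its standard error for the 8 tested markers in 3 fits: all 6 libraries, all but control replicate 1, and all 6 scaled by library size alone. Sox9 moves from below 0 to 0.29 without control replicate 1, while Bicc1 and Prom1 stay above 1 in each of the 3 fits.

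Scaling by library size alone raised all 8 log2 fold changes and took 3 more markers past the threshold: Epcam at 1.40 (edgeR adjusted p = 0.0264), Spp1 at 1.05 (edgeR adjusted p = 0.00372) and Cd24a at 1.24 (edgeR adjusted p = 0.00818). With that scaling the median of the 8 was 1.15, against 0.60 for all tested genes. Krt19 and Sox9 stayed below 0, at -0.23 and -0.97. Within groups, the markers leaned on particular libraries. Knockout replicate 3 was the highest knockout library for 7 of the 8 tested markers, beside 35.9% of all tested genes. Control replicate 1 was the highest control for 6 of the 8, beside 40.5% of all tested genes. Prom1 and Spp1 were the exceptions among the controls, both highest in control replicate 3.

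**Figure D3:**
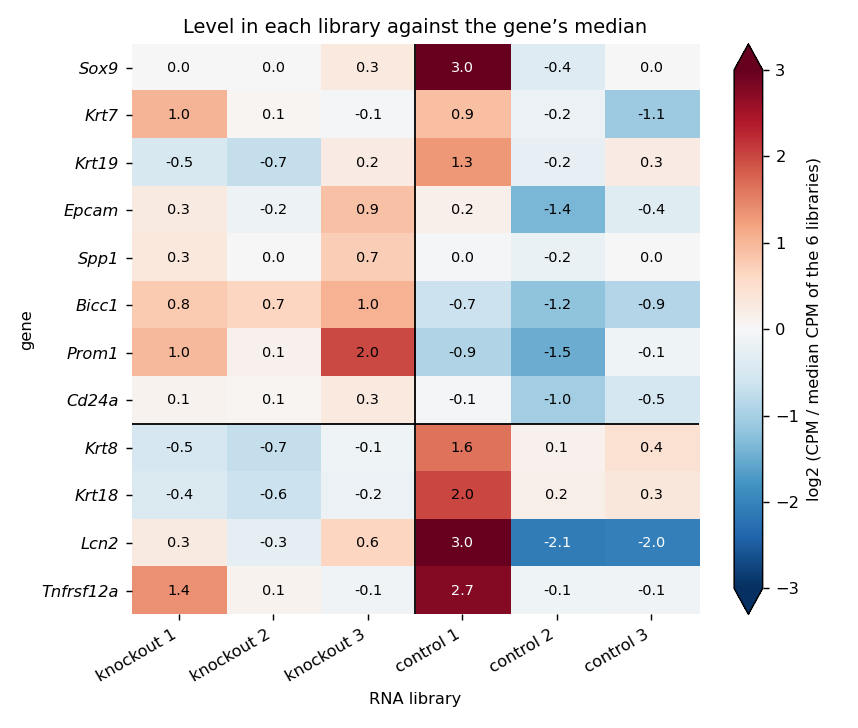
Log2 of the CPM in each RNA library over the gene's median of the 6 libraries, with knockout libraries left of the line and control libraries right of it. The 8 tested markers are above the line across the grid and 4 genes of the wider lists below it. Sox9, Krt8, Krt18, Lcn2 and Tnfrsf12a share their highest value in control replicate 1, whereas Bicc1 and Prom1 are highest in knockout libraries.

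The summed level of the 9 markers was 71.6, 60.6 and 93.4 CPM in the knockout libraries, against 172.8, 44.7 and 55.0 CPM in the control libraries. Most of the highest sum is Sox9, and without Sox9 the sums were 55.6, 44.8 and 74.0 CPM in the knockout libraries, against 43.2, 32.6 and 39.2 CPM in the control libraries. Without Sox9 and Spp1 they were 18.7, 15.0 and 24.7 CPM in the knockout libraries, against 14.1, 6.72 and 9.63 CPM in the control libraries. In each sum without Sox9, the lowest knockout library lay narrowly above the highest control library, at 44.8 against 43.2 CPM and 15.0 against 14.1 CPM. With Sox9 kept the groups overlapped, also where Spp1 alone was left out. Among single tested genes, 23.5% had all knockout libraries above all control libraries. The sums without Sox9 were chosen after seeing the data and leave out the marker with the most negative log2 fold change. Their separation therefore carries no support for a rise of the markers.

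Another 5 lists of biliary and progenitor genes were read beside the markers. Among 18 tested transcription factors and Notch genes, 2 were higher (11.1%) and 5 lower (27.8%), beside 12.6% and 13.0% of all tested genes, with a median log2 fold change of 0.14. The balance turned under library size alone to 9 higher and 2 lower, with a median of 0.72 beside 0.60 for all tested genes. The median was 0.34 without control replicate 1, and single libraries moved the counts to 1 higher and 2 lower (without control replicate 2 or 3), 1 and 3 (without knockout replicate 1), 2 and 3 (without knockout replicate 2) and 2 and 2 (without knockout replicate 3). Notch3, a Notch receptor also of pericytes, rose to 16.3 ± 3.45 CPM in the knockout libraries, against 3.27 ± 0.626 CPM in the control libraries (SD, n = 3 each, edgeR adjusted p = 0.000706). Onecut1, the factor HNF6 of duct and hepatocyte development, fell (log2 fold change -1.75, edgeR adjusted p = 0.00509), as did the pioneer factor Foxa1, at -1.57 (edgeR adjusted p = 0.00164). These 3 calls held in each of the 12 other fits. Foxa2 (-0.72), the ligand Jag1 (-0.69) and the receptor Notch1 (-0.76) were lower. The Jag1 call ended without each library except control replicate 1 (edgeR adjusted p 0.0512 to 0.107). The Foxa2 call ended without control replicates 2 and 3 and knockout replicates 2 and 3 (edgeR adjusted p from 0.0784 to 0.0958), and the Notch1 call without control replicates 2 and 3 and knockout replicates 1 and 3 (0.0742 to 0.0841). Foxa2, Jag1 and Notch1 were also lost under library size alone, and Jag1 with upper-quartile factors (edgeR adjusted p = 0.0610) and with no count filter (edgeR adjusted p = 0.0775).

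Of 17 tested Hippo pathway genes and targets of its effector YAP, 5 were higher (29.4%) and 2 lower (11.8%), beside 12.6% and 13.0% of all tested genes, with a median of 0.09. Under library size alone 9 were higher and 0 lower, with a median of 0.69. The median was 0.19 without control replicate 1, 0.27 without control replicate 2, 0.06 without knockout replicate 2 and 0.14 without knockout replicate 3. Of the calls, 3 higher and 1 lower were left without any one of control replicates 2 and 3 and knockout replicates 1 and 2, and 4 and 1 without knockout replicate 3. Ctgf, a target of YAP, rose (log2 fold change 1.26, edgeR adjusted p = 0.00800), as did Ajuba, a LIM protein of the pathway, at 1.33 (edgeR adjusted p = 0.00224) and the receptor tyrosine kinase Axl at 0.97 (edgeR adjusted p = 0.00675). These 3 calls held in each of the 12 other fits. The coactivator gene Wwtr1, or TAZ, fell, at -0.93 (edgeR adjusted p = 0.00234), and stood at -0.34 under library size alone, where it missed the threshold (edgeR adjusted p = 0.0541). Yap1 was lower at -0.45, which turned to 0.14 under library size alone. Tead1 and Nf2 were higher at 0.72 and 0.66. The Yap1 and Tead1 calls ended without each library except control replicate 1 (edgeR adjusted p from 0.0540 to 0.104 for Yap1 and 0.0656 to 0.149 for Tead1), and the Tead1 call also with DESeq2's size factors (edgeR adjusted p = 0.0547). The Nf2 call ended without control replicates 2 and 3 and knockout replicates 1 and 2 (0.0562 to 0.0716). Cyr61 and Amotl2, targets of YAP as well, had log2 fold changes of -0.07 and -0.06. Their levels in control replicate 1 were 0.21 and 0.24 of those in control replicate 2, the highest control, so these values average over unlike controls.

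Of 17 tested genes of biliary transport and cilia, 3 were higher (17.6%) and 2 lower (11.8%), beside 12.6% and 13.0% of all tested genes, with a median of 0.15. Under library size alone 9 were higher and 2 lower, with a median of 0.73. The median was 0.02 without control replicate 1, 0.07 without knockout replicate 1 and -0.01 without knockout replicate 3, where 2 were higher and 3 lower. Slc10a2, the sodium-dependent bile acid transporter of cholangiocytes and ileum, had 5.84, 4.09 and 1.40 CPM in the knockout libraries, against 45.6, 37.4 and 39.3 CPM in the control libraries. It fell (log2 fold change -3.43, edgeR adjusted p = 0.00363), and the groups were far apart. Abcc3, an exporter of bile acids and conjugates on the basolateral side of hepatocytes and cholangiocytes, fell, at -3.45 (edgeR adjusted p = 0.00127). Car2, a carbonic anhydrase of bicarbonate secretion, rose, at 1.16 (edgeR adjusted p = 0.00835) and Atp1b1, a subunit of the sodium pump, at 0.59 (edgeR adjusted p = 0.00666). These 4 calls held in each of the 12 other fits. The anion exchanger Slc4a2 was higher at 0.42, a call that ended without each library except control replicate 1 (edgeR adjusted p from 0.0538 to 0.0869). Pkhd1, Pkd1 and Pkd2, genes of cystic disease like Bicc1, had log2 fold changes of -0.13, -0.04 and 0.01 and did not pass the test.

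Of 21 tested simple epithelial keratin and surface genes, 1 was higher (4.76%) and 2 lower (9.52%), beside 12.6% and 13.0% of all tested genes, with a median of -0.09. Under library size alone 3 were higher and 0 lower, with a median of 0.52, and leaving out control replicate 1 gave 2 higher and 4 lower, with a median of 0.19. The median was also above 0 without knockout replicate 2, at 0.15, and was -0.27 without knockout replicate 3 and -0.14 without control replicate 3. The counts were 1 and 1 without control replicate 3, 0 and 0 without knockout replicate 1, and 1 and 0 without knockout replicate 2 or 3. Ddr1, a collagen receptor, rose to 9.35 ± 2.48 CPM in the knockout libraries, against 3.56 ± 0.962 CPM in the control libraries (SD, n = 3 each, edgeR adjusted p = 0.0114, and 0.0515 without knockout replicate 1). Clu (-0.46) and Tm4sf4 (-0.50) were lower, and both turned to above 0 under library size alone, at 0.13 and 0.10. The Clu call ended without each library except control replicate 1 (edgeR adjusted p from 0.0653 to 0.131), also if upper-quartile factors were used (edgeR adjusted p = 0.0610), and that of Tm4sf4 without control replicate 2 and each knockout library (0.0528 to 0.0938). Krt8 and Krt18, the keratin pair of hepatocytes and duct cells alike, had log2 fold changes of -1.32 (edgeR adjusted p = 0.0548) and -1.50 (edgeR adjusted p = 0.0803). Without control replicate 1, which held the most of both, they were -0.73 (edgeR adjusted p = 0.0163) and -0.68 (edgeR adjusted p = 0.00681).

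Of 14 tested progenitor and fetal liver genes, 0 were higher and 1 lower (7.14%), beside 12.6% and 13.0% of all tested genes, with a median of 0.06. Under library size alone 9 were higher and 1 lower, with a median of 0.65 beside 0.60 for all tested genes. The median was 0.26 without control replicate 1, 0.24 without control replicate 2, 0.20 without control replicate 3, 0.17 without knockout replicate 1, 0.09 without knockout replicate 2 and -0.04 without knockout replicate 3. Without control replicate 1 the counts were 1 higher and 1 lower, and without knockout replicate 2 or 3 they were 0 and 2. The one that fell was Fgfr2, a receptor of fibroblast growth factors, at -1.22 (edgeR adjusted p = 0.00221), a call that held in each of the 12 other fits. Afp, the fetal albumin relative used as a progenitor sign, had 2.03, 2.13 and 3.18 CPM in the knockout libraries, against 0.681, 1.95 and 1.61 CPM in the control libraries (edgeR adjusted p = 0.190). Tnfrsf12a had 31.0, 12.8 and 11.0 CPM in the knockout libraries, against 79.8, 10.9 and 11.1 CPM in the control libraries, with control replicate 1 far above the rest as for Sox9.

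**Figure D4:**
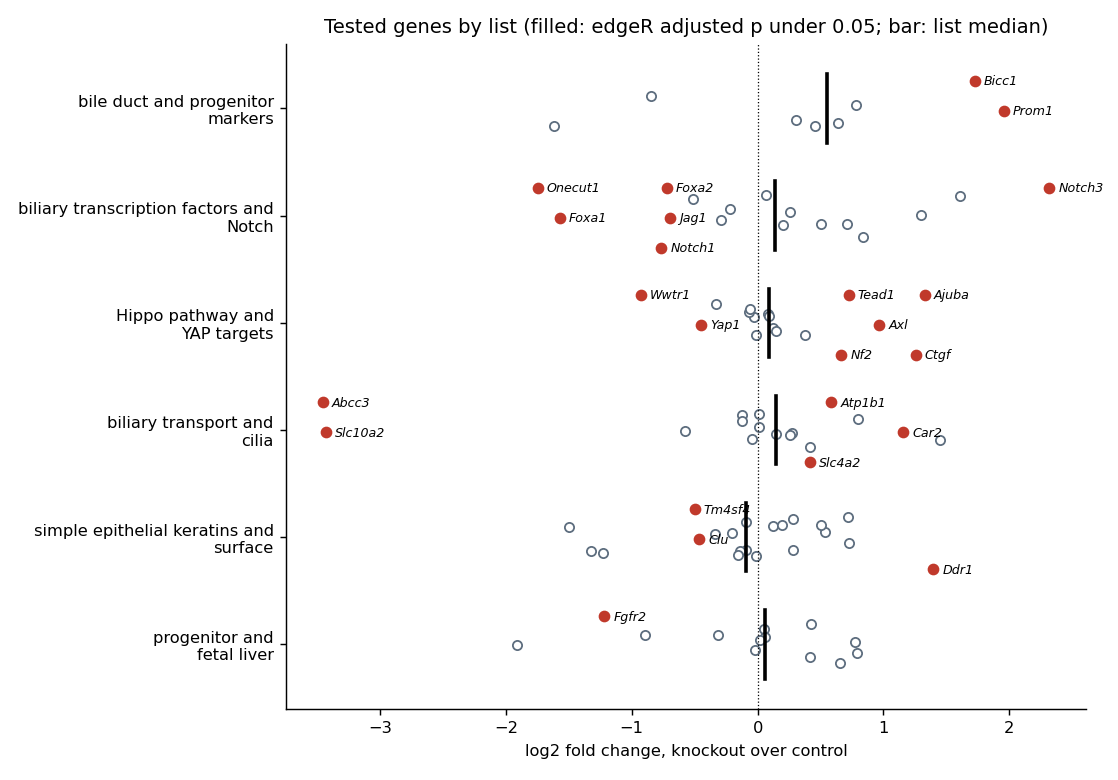
Log2 fold change, knockout over control, of the 8 tested markers and of the tested genes of 5 wider lists, leaving out 2 genes not reported here by name. Filled points passed edgeR at an adjusted p under 0.05 and carry their names, open points did not, and the vertical bar is the median of the whole list, which runs from -0.09 to 0.55; height within a list has no meaning.

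Markers of the cells a hepatocyte preparation can hold were summed in each library. Their calls stand beside 12.6% higher and 13.0% lower among all tested genes. The shares called lower were 72.2% of hepatocyte and 20% of red cell markers. The shares called higher were 72.2% of macrophage, 20% of stellate cell and fibroblast and 7.14% of endothelial markers. The 18 hepatocyte markers, led by Alb and Apoa1, summed to between 36883 and 46702 CPM in the knockout libraries, against 122117 to 127756 CPM in the control libraries, and 13 of 18 were lower. The 18 macrophage markers, led by Mpeg1 and Clec4f, summed to between 936 and 1115 CPM in the knockout libraries, against 476 to 581 CPM in the control libraries, and 13 of 18 were higher. Stellate cell and fibroblast markers, led by Ecm1 and Dcn, summed to between 467 and 546 CPM in the knockout libraries, against 276 to 498 CPM in the control libraries, with 3 of 15 tested genes higher. Endothelial markers, led by Stab1 and Stab2, summed to between 411 and 628 CPM in the knockout libraries, against 343 to 419 CPM in the control libraries, with 1 of 14 higher. Lymphocyte and neutrophil markers, led by Ptprc and Csf3r, gave 17.8 to 31.6 CPM in the knockout libraries, against 13.6 to 18.7 CPM in the control libraries, with 0 of 10 tested genes called and the highest sum in knockout replicate 3. Red cell markers, led by Alas2 and Hba-a1, gave 37.2 to 71.9 CPM in the knockout libraries, against 111.0 to 176.1 CPM in the control libraries, with Alas2 the 1 of 5 tested genes that was lower. No marker of these lists had 0 counts in all 6 libraries. The macrophage sums, like Spp1, which macrophages express, were higher in each knockout library than in any control library. Within each group, replicate 2 had the highest macrophage sum and the lowest Spp1. An order among so few libraries cannot tell which cells the Spp1 reads came from. The lymphocyte and neutrophil sum was highest in the library where Bicc1, Prom1, Epcam, Spp1 and Cd24a are highest. The part of these cells in the results was not tested.

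**Figure D5:**
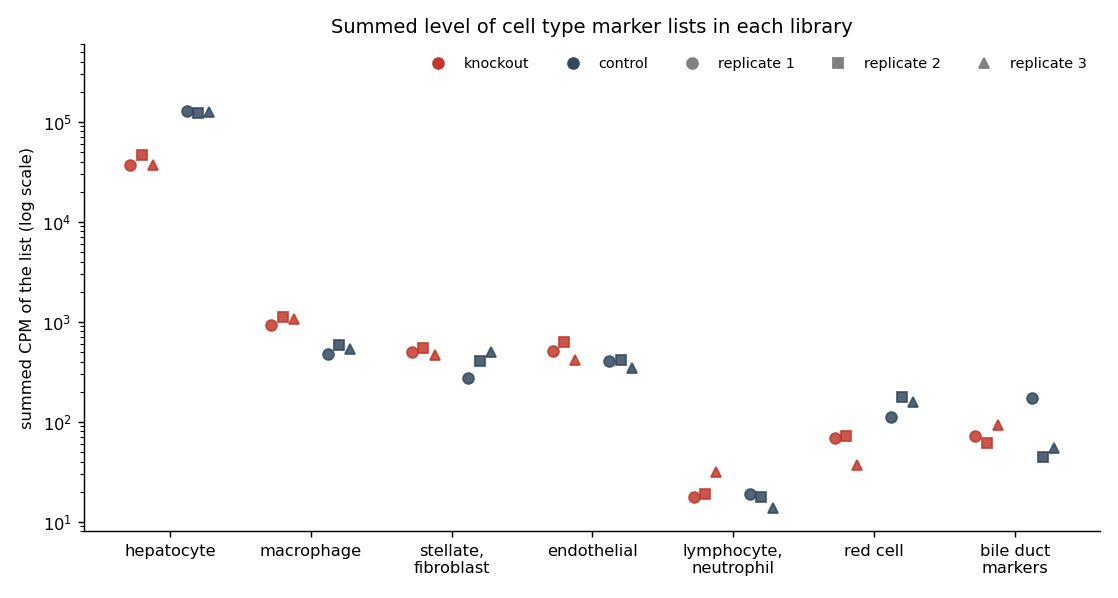
Summed CPM of each cell type marker list in each RNA library, on a log scale, with knockout libraries left of control libraries and symbols for the replicate number. Hepatocyte and red cell sums are lower and macrophage sums higher in each knockout library than in any control library, while the sum of the 9 bile duct and progenitor markers overlaps through control replicate 1 at 172.8 CPM.

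The ChIP lists were read for regions over the markers. The titles of these samples name RNA polymerase III, spelled as RNA poll III, and the design text of the series names Lcmr1, so the protein precipitated is not settled here. With 1 library per genotype there is no replicate and no test. The knockout list holds 1649 regions and the control list 22793, so a gene without a region in the knockout list is the common case. A region overlapped 0 of the 9 markers in the knockout list, beside 2.37% of all genes in the table, and 1 of the 9 in the control list, beside 24.2% of all genes. Among the genes tested in RNA these shares were 3.90% and 39.2%.

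The marker with a region was Sox9. The control list holds a region of 228 bases at chr11:112782194-112782421, with its summit 70 bases after the start of Sox9 in the count table. Its fold over background, the authors' own value, was 5.62 and its -log10 q 5.78, and 44.2% of the regions in that list have a higher fold. The nearest knockout region lay 2375.5 kb from Sox9. Bicc1 and Prom1, which rose in RNA, had their nearest control regions 78.2 kb and 70.2 kb outside the gene and their nearest knockout regions 727.6 kb and 7332.4 kb outside. Epcam had its nearest control region 21.3 kb from the gene, and Cd24a had 1 region in each list at 37.2 kb. Requiring the summit inside the gene, widening each gene by 5 kb on both sides or keeping regions with a -log10 q of at least 5 left these counts at 0 and 1.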

How the data were processed

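RNA was measured in 6 libraries and ChIP in 2, all grouped by the genotype in the labels. The deposited RNA table holds whole-number read counts per Ensembl gene with positions on mm10, and HISAT2 2.1.0, Bowtie2 2.2.3 and HTSeq 0.6.0 are named in the submitters' processing notes. What each tool did and the strand setting were not stated there or in other sources used here. Whether the counts separate a gene from one on its opposite strand is therefore not known. The table also carries the authors' fold (ratio), log2 fold change, p-value and adjusted p-value, and a base mean signal, as deposited. The ChIP lists, 1 per library, give a score, a fold over background and -log10 p and q as deposited by the authors; the submitters' processing notes for them list MACS2, BWA, SAMtools, deepTools and DESeq2, with no roles.

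The counts were filtered by filterByExpr (at least 10, total 15), scaled by TMM and tested two-sided by edgeR 4.0.16 (R 4.3.3, robust quasi-likelihood), with genotype as the only term, Benjamini-Hochberg adjustment over all 15135 genes and a threshold of 0.05. The test was run on simulated counts with known changes first. SE is the log2 fold change divided by the root of the F statistic. Floors cover counting error only. A region counted as over a gene with at least 1 shared base. A total of 3 list entries, Hes4, Krt20 and Ahsp, were not matched and not analysed here, and 2 were matched by gene ID, as Cyr61 and Ctgf. The members and lists were chosen with earlier results of these data known. Named beside the members were the 2 called genes per list with the lowest adjusted p, other called genes where at most 5 rose or fell, the 2 most abundant genes of each cell type list and, for members with at least 5 CPM on average, the gene of most similar pattern (log2 of CPM plus 0.5). A total of 2 list genes are not reported here by name, though they are in the counts and medians of their lists. Other genes were named after their values were seen. Alternatives were other scalings, DESeq2 1.42.0, no count filter, a replicate block and leaving out each library.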

Additional observations from a re-analysis of the deposited data

How the results depend on the processing

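A total of 132 values were recomputed under alternative settings, and 109 were labelled as the same. They were the count of changed genes, the count and fold changes of markers, their sums and their ChIP counts. Fold changes had to keep direction and side of the threshold, and ChIP counts had to be equal. Counts of changed genes and called markers had only to stay within a fixed ratio, so 4921 changed genes in place of 3865 passed as the same. Sums had to stay within the SD of the libraries, which was 71.2 CPM for the controls, with control replicate 1 among them. Under library size alone, 8328 genes changed in place of 3865, 5 markers were called in place of 2, the log2 fold changes of Epcam, Spp1 and Cd24a passed the edgeR test at 1.40, 1.05 and 1.24, and the mean of the summed markers was 92.7 CPM in the knockout and 72.3 CPM in the control libraries, in place of 75.2 and 90.8 CPM. Without Spp1 that mean was 36.6 CPM in the knockout and 62.7 CPM in the control libraries, and without Sox9, a setting chosen after seeing the data, 58.1 CPM in the knockout and 38.3 CPM in the control libraries. Leaving out 1 library at a time gave 2236 to 4921 changed genes and 1 to 2 called markers; the markers called without control replicate 1 were Bicc1 and Cd24a. The log2 fold changes then ran from -2.10 to 0.29 for Sox9, -0.13 to 0.95 for Krt7, 1.33 to 2.37 for Prom1, 1.58 to 1.86 for Bicc1 and 0.42 to 0.92 for Cd24a. Of the 23 called genes of the 5 wider lists, 11 were called in each of the 12 alternatives and 3 reversed under library size alone. Deviations of libraries with the same replicate number had correlations of 0.13, 0.05 and 0.11 over genes, so the numbers were not taken as pairs, although each library correlated best with its own number. With a replicate block, 3468 genes changed, Bicc1 had 1.73 (edgeR adjusted p = 0.00597), Prom1 1.88 (edgeR adjusted p = 0.00925) and Sox9 -0.71 (edgeR adjusted p = 0.625), and the 2 called markers were the same. Among the wider lists, Jag1, Tead1 and Clu missed the threshold with the block (edgeR adjusted p = 0.0605, 0.0817 and 0.0622) and Aqp4 passed it. DESeq2 gave no adjusted p for Sox9. The cause of these differences was not tested. Low counts limit Cftr, Krt7, Krt19 and the control libraries of Prom1, and also those of Epcam, Cd24a and Bicc1, with lowest control counts of 19, 31 and 37.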
